A study of Mus musculus with 20 samples.

Results

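Odorant receptor genes numbered Olfr1141 to Olfr1277 lie on mouse chromosome 2, and their messages were measured in sorted cells of the olfactory mucosa. The 97 receptors described here were those with a probe set on chromosome 2 and a symbol in this number range. Of 104 such receptors, 7 were left out by name: Olfr1153, Olfr1179, Olfr1181, Olfr1183, Olfr1186, Olfr1202 and Olfr1257. They are 97 of 1080 odorant receptors on the array and of 22206 probe sets for genes. The choice was made with earlier results of these data known. All 7 left-out receptors had a positive odor difference, from 0.873 to 2.716 log2 units, and 3 of them were among the 10 smallest p-values of all receptors for it. Counts for the odor comparison below are therefore counts after this removal.

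Each odorant receptor is a membrane protein on the cilia of olfactory sensory neurons that binds airborne molecules and couples to a G protein. A mature sensory neuron transcribes a single receptor gene out of the whole repertoire, so the message of a receptor in a sample follows the neurons that chose it. Transcription of S100a5, a calcium-binding protein, depends on the activity of the neuron, and a reporter driven by it marks neurons that have recently been active. The ligands of most mouse receptors are not established, and none is given here for any receptor named.

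All mice carried the S100a5-tauGFP reporter, and the labels name no other allele. The 30 animals were of both sexes and 7 to 12 weeks old, and each was kept alone in a clean air chamber for 40 h at 3.1 L/min. Pulses lasting 10 s began at 26 h and were repeated at intervals of 20 min. For 5 pools of 3 mice the pulse was an odor and for 5 other pools it was filtered air, the vehicle. The sample labels name the odor as artificial cigarette smoke odor, whereas the design text of the series names bourgeonal, a floral aldehyde, and the files do not settle which was given. Each pool was sorted by fluorescence into GFP+ and GFP- cells, which gave 4 groups of 5 samples: odor GFP+, odor GFP-, vehicle GFP+ and vehicle GFP-. Because GFP- cells are all other cells of the dissociated mucosa, fewer neurons of a kind and less message per neuron cannot be told apart in these samples.

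The sort could be checked on S100a5, whose log2 signal averaged 16.91 ± 0.29 in odor GFP+ cells and 14.76 ± 0.66 in odor GFP- cells (SD, n = 5 each). In vehicle pools it averaged 16.6 ± 0.32 in GFP+ cells and 15.3 ± 0.68 in GFP- cells. Both differences passed the test used throughout, limma with Benjamini-Hochberg adjustment over all 22206 probe sets at 0.05 (adjusted p = 0.00131 and 0.0368). Values are log2 signals, on which a difference of 1 means 2 times the signal, a change is GFP+ minus GFP- within a pool, and a receptor is called where it passed this test. Omp, the marker of mature sensory neurons, differed by 0.12 and 0.22 (adjusted p = 0.901 and 0.717 in limma). None of 17 markers of mature neurons passed the test in either condition, and 3 of 8 activity-associated genes in odor pools and 4 of 8 in vehicle pools were higher in GFP+ cells. All 11 measured markers of white blood cells were lower in GFP+ cells of both conditions, with log2 of their summed signal at 9.87 to 10.25 in odor GFP+ cells against 18.8 to 20.05 in odor GFP- cells, and 9.91 to 10.48 against 19.16 to 20.5 in vehicle pools. In both conditions 4 of 8 markers of immature neurons, 3 of 7 of basal cells and 6 of 6 of microvillar cells were also lower in GFP+ cells, as were 0 of 8 markers of sustentacular cells in odor pools and 2 of 8 in vehicle pools. The part of this makeup of the fractions in the receptor differences below was not tested. The 4 arrays of replicate 5, 1 in each group, stood apart, with median gene signals of 7.03 to 7.46 where the other 16 arrays had 6.06 to 6.39. Of the other arrays, the first vehicle GFP- sample correlated least with its group (mean r of 0.895).

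Binding sites for Olf/Ebf factors and for homeodomain proteins such as Lhx2 and Emx2 are known from receptor promoters, in the stretch upstream of the gene. RefSeq windows of 250 bases before the annotated start (build GRCm38.p6) were found for 91 of the 97 receptors. In 65 of 92 such windows the annotated start is the ATG itself, so that those windows lie before the coding exon and not before the transcription start. Windows before gene models longer than 2000 bases are therefore shown, for 4 receptors chosen after their values were seen. Such a model was taken, by its length, to hold an upstream exon. Olfr1213 and Olfr1223 are of subfamily MOR233 and hold the core of the Olf/Ebf site, but Olfr1213 was much lower in GFP+ cells and Olfr1223 was not called. Olfr1157 was higher in GFP+ cells, and Olfr1182 was lower and holds none of the motifs searched. Capitals mark matches to CCCNNGGG (Olf/Ebf), TAATTA and TAATGA (homeodomain cores), searched on both strands, so TAATGA also appears as TCATTA. All 4 windows read on the minus strand, at chr2:88980268-88980517 for Olfr1213, chr2:89151337-89151586 for Olfr1223, chr2:87968258-87968507 for Olfr1157 and chr2:88449122-88449371 for Olfr1182.
Olfr1213: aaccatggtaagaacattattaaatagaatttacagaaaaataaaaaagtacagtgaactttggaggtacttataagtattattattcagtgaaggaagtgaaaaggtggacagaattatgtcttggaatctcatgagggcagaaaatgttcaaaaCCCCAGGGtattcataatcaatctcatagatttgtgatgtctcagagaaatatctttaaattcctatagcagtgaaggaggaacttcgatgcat
Olfr1223: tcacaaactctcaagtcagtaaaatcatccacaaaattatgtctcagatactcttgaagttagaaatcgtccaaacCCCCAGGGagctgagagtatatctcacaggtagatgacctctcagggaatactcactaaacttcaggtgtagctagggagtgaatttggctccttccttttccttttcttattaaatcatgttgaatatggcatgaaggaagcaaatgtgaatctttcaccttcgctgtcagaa
Olfr1157: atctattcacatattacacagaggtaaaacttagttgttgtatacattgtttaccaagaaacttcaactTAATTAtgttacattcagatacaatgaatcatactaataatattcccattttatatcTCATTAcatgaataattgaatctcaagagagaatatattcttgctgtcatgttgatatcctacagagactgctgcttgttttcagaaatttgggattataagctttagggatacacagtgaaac
Olfr1182: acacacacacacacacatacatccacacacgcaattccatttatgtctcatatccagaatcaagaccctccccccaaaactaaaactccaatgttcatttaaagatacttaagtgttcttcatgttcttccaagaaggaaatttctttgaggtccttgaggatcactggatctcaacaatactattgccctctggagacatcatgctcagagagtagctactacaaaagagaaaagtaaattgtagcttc

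The CCCNNGGG core was found in 2 of 92 windows of these receptors (2.17%), which are the windows of Olfr1213 and Olfr1223, against 2.75% of windows of all odorant receptors and 11.8% of those of all genes. TAATTA was found in 27 windows (29.3%), against 18.1% of receptor windows and 4.84% of all windows. TAATGA was also found in 27 windows (29.3%), against 25.3% and 8.59%. These matches are a description of the letters in these windows. Windows before the coding exon and before the transcription start are mixed in these shares.

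Many of these receptors differed between the fractions, and they did so in both directions. In odor pools 30 of 97 were higher in GFP+ cells and 23 were lower, where 2.07% of all probe sets were higher and 5.82% lower. In vehicle pools 30 were higher and 19 lower, where 2.26% of all probe sets were higher and 6.86% lower. The median log2 change of the 97 was 0.45 in odor pools and 0.42 in vehicle pools, against 0.08 and 0.09 over all probe sets. The other 983 odorant receptors had 30.4% higher and 16.5% lower in odor pools, and 34.0% higher and 15.4% lower in vehicle pools, so the shares of 30.9% and 23.7%, and of 30.9% and 19.6%, among the 97 were not far from theirs and were not tested against them. Without the pool as a unit, that is with no replicate block, 15 were higher and 16 lower in odor pools, and 17 were higher and 15 lower in vehicle pools. Calls over all probe sets fell likewise in that fit, to 206 higher and 844 lower in odor pools, against 460 and 1292, and to 219 higher and 979 lower in vehicle pools, against 501 and 1523. Without the pools numbered 5, 24 were higher and 21 lower in odor pools, and 27 were higher and 16 lower in vehicle pools.

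**Figure D1:**
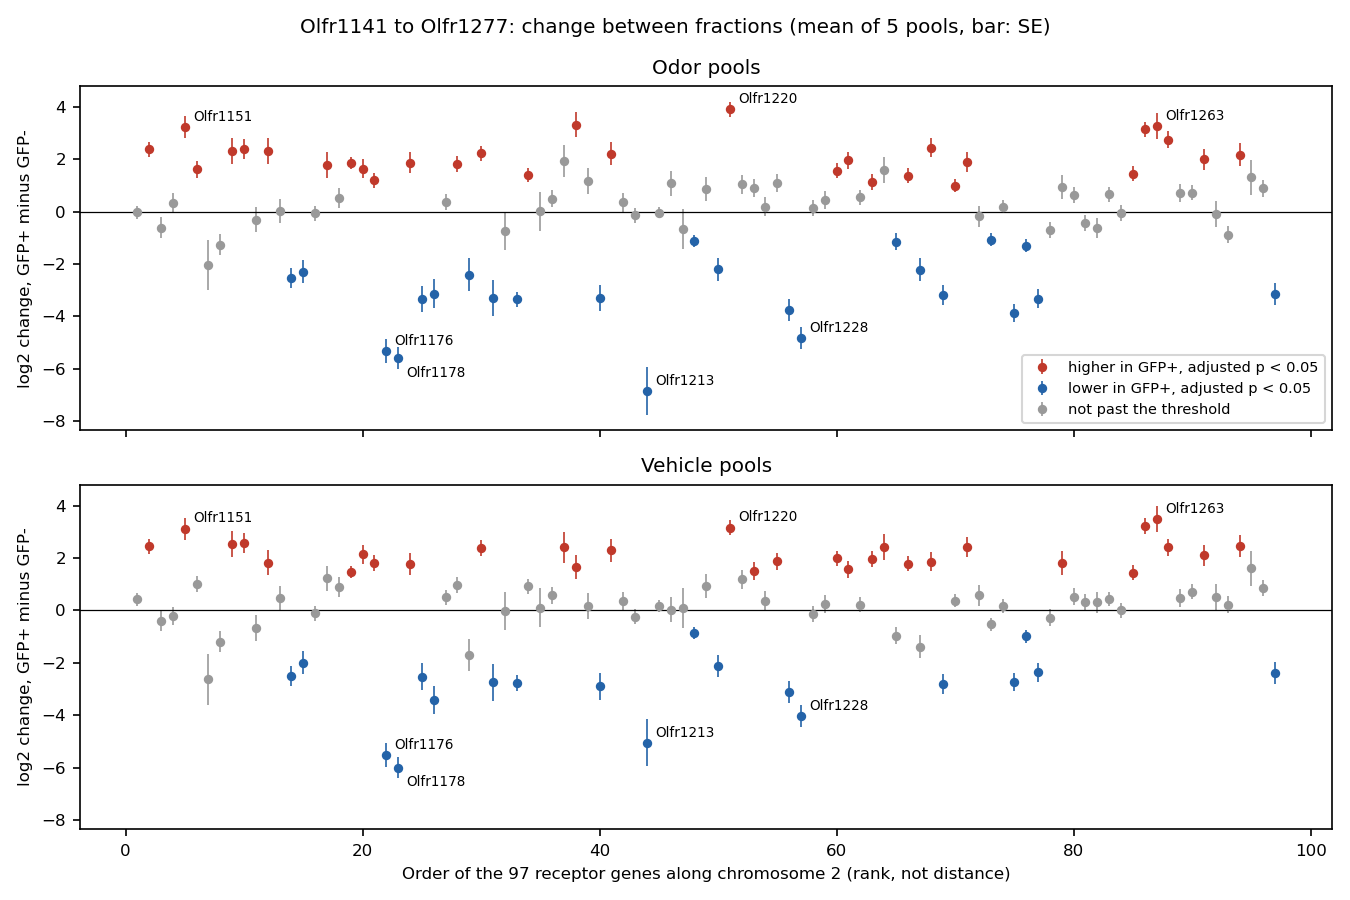
Log2 change between GFP+ and GFP- cells (y axis) for the 97 receptors in their order along chromosome 2 (x axis, rank), in odor pools above and vehicle pools below. Points are means of 5 pools, bars are standard errors, and colour gives the call. Receptors higher and lower in GFP+ cells are interspersed, and the lowest are Olfr1178, Olfr1176, Olfr1213 and Olfr1228.

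The receptors with the highest change in vehicle pools were Olfr1263, Olfr1262, Olfr1220 and Olfr1151. Olfr1263 had log2 signals of 11.99, 12.26, 12.72, 12.52 and 14.41 in odor GFP+ cells against 7.91, 9.31, 9.18, 10.45 and 10.76 in odor GFP- cells. In vehicle pools its signals were 12.15, 11.67, 12.92, 11.05 and 13.38 in GFP+ cells against 6.32, 9.24, 8.29, 9.32 and 10.59 in GFP- cells. The GFP+ and GFP- samples did not overlap in either condition. Its change was 3.26 ± 0.49 in odor pools and 3.48 ± 0.49 in vehicle pools (log2, SE; limma adjusted p = 0.000588 and 0.000288). Olfr1262, the gene beside it, had 12.83, 13.14, 13.51, 13.28 and 15.0 in odor GFP+ cells against 9.92, 8.97, 10.73, 10.59 and 11.88 in odor GFP- cells, a change of 3.13 ± 0.30 (limma adjusted p = 1.18e-05). Vehicle pools gave 13.70, 13.15, 13.70, 12.85 and 14.40 in GFP+ cells against 9.21, 10.42, 10.25, 10.56 and 11.24 in GFP- cells, a change of 3.23 ± 0.30 (limma adjusted p = 8.78e-06). Its groups did not overlap either.

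Olfr1220 showed the highest change of the 97 in odor pools. Its signals there were 13.97, 15.13, 15.80, 14.60 and 14.25 in GFP+ cells against 9.30, 10.35, 12.08, 11.66 and 10.86 in GFP- cells. In vehicle pools they were 13.73, 15.20, 13.50, 14.10 and 13.70 in GFP+ cells against 9.75, 12.06, 10.36, 11.81 and 10.44 in GFP- cells. Every GFP+ sample lay above every GFP- sample in both conditions, with changes of 3.90 ± 0.30 and 3.16 ± 0.30 (limma adjusted p = 1.49e-06 and 9.04e-06). Olfr1151, near the start of the range, had 8.86, 8.94, 9.78, 8.90 and 11.17 in odor GFP+ cells against 6.15, 5.35, 6.06, 6.31 and 7.69 in odor GFP- cells, a change of 3.22 ± 0.42. In vehicle pools its change was 3.12 ± 0.42, and the groups did not overlap in either condition. The next 4 in vehicle pools were Olfr1157, Olfr1156, Olfr1274 and Olfr1143, with changes from 2.44 to 2.56. All 4 were higher in GFP+ cells in 5 of 5 odor pools and in 5 of 5 vehicle pools.

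As a description with no test, receptors lower in GFP+ cells had larger changes than those higher there. Among called receptors the median change was -3.18 for the 23 lower and 1.97 for the 30 higher in odor pools, and -2.75 for the 19 lower and 2.12 for the 30 higher in vehicle pools. Olfr1178 had 5.28, 6.58, 6.38, 5.51 and 4.58 in odor GFP+ cells against 10.98, 11.01, 10.76, 11.55 and 11.92 in odor GFP- cells. Its vehicle signals were 4.14, 5.58, 5.25, 5.08 and 4.78 in GFP+ cells against 10.92, 11.89, 10.05, 10.51 and 11.45 in GFP- cells. The gap between the groups was over 4 log2 units in each condition. Its changes were -5.58 ± 0.41 and -6.00 ± 0.41 (limma adjusted p = 9.69e-07 and 4.3e-07). In vehicle GFP+ cells it was at or below the median of the background control probe sets on at least 3 of 5 arrays, so the vehicle change is a lower limit on the size of the decrease.

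Olfr1176 is the neighbour of Olfr1178 and was also among the lowest. Its signals were 6.25, 5.81, 5.14, 8.81 and 9.52 in odor GFP+ cells against 12.41, 11.54, 11.54, 12.45 and 14.20 in odor GFP- cells. In vehicle pools they were 6.41, 6.90, 4.82, 8.71 and 7.07 in GFP+ cells against 10.89, 13.04, 10.68, 12.75 and 14.12 in GFP- cells. The groups were apart in both conditions, with changes of -5.33 ± 0.45 and -5.51 ± 0.45 (limma adjusted p = 3.72e-06 and 2.35e-06).

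Olfr1213, whose upstream window is printed above, had 5.12, 6.04, 6.37, 4.41 and 2.94 in odor GFP+ cells against 11.13, 10.44, 11.06, 12.56 and 13.91 in odor GFP- cells. In vehicle pools it had 4.38, 5.76, 7.47, 5.81 and 4.11 in GFP+ cells against 9.26, 12.12, 9.65, 9.49 and 12.27 in GFP- cells. Its pools differed widely in size of change, from -10.96 to -4.41 in odor pools and from -8.16 to -2.18 in vehicle pools, though every pool was lower in GFP+ cells. The mean changes were -6.84 ± 0.91 and -5.05 ± 0.91 (limma adjusted p = 0.000195 and 0.00199). In odor GFP+ cells the signal was at or below background on 3 of 5 arrays, so the size of the odor change is uncertain. In odor pool 5 the signal was 2.94 against a background median of 6.03, and that pool had the change of -10.96. Olfr1223, with the same core in its window, changed by 0.19 ± 0.36 and 0.36 ± 0.36 (limma adjusted p = 0.899 and 0.706).

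Olfr1228 stood out for its even signals in GFP+ cells, 8.66, 8.56, 8.33, 9.15 and 8.92 in odor pools and 8.86, 8.28, 8.84, 8.37 and 8.80 in vehicle pools. In GFP- cells it had 13.43, 13.22, 13.12, 14.32 and 13.60 in odor pools and 10.94, 14.41, 11.99, 12.73 and 13.20 in vehicle pools. The groups did not overlap, with changes of -4.82 ± 0.41 and -4.03 ± 0.41 (limma adjusted p = 4.26e-06 and 2.02e-05). The next 4 lowest in vehicle pools, Olfr1184, Olfr1226, Olfr1208 and Olfr1243, had changes from -3.42 to -2.81 there, with 0 of 5 odor pools and 0 of 5 vehicle pools higher in GFP+ cells.

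**Figure D2:**
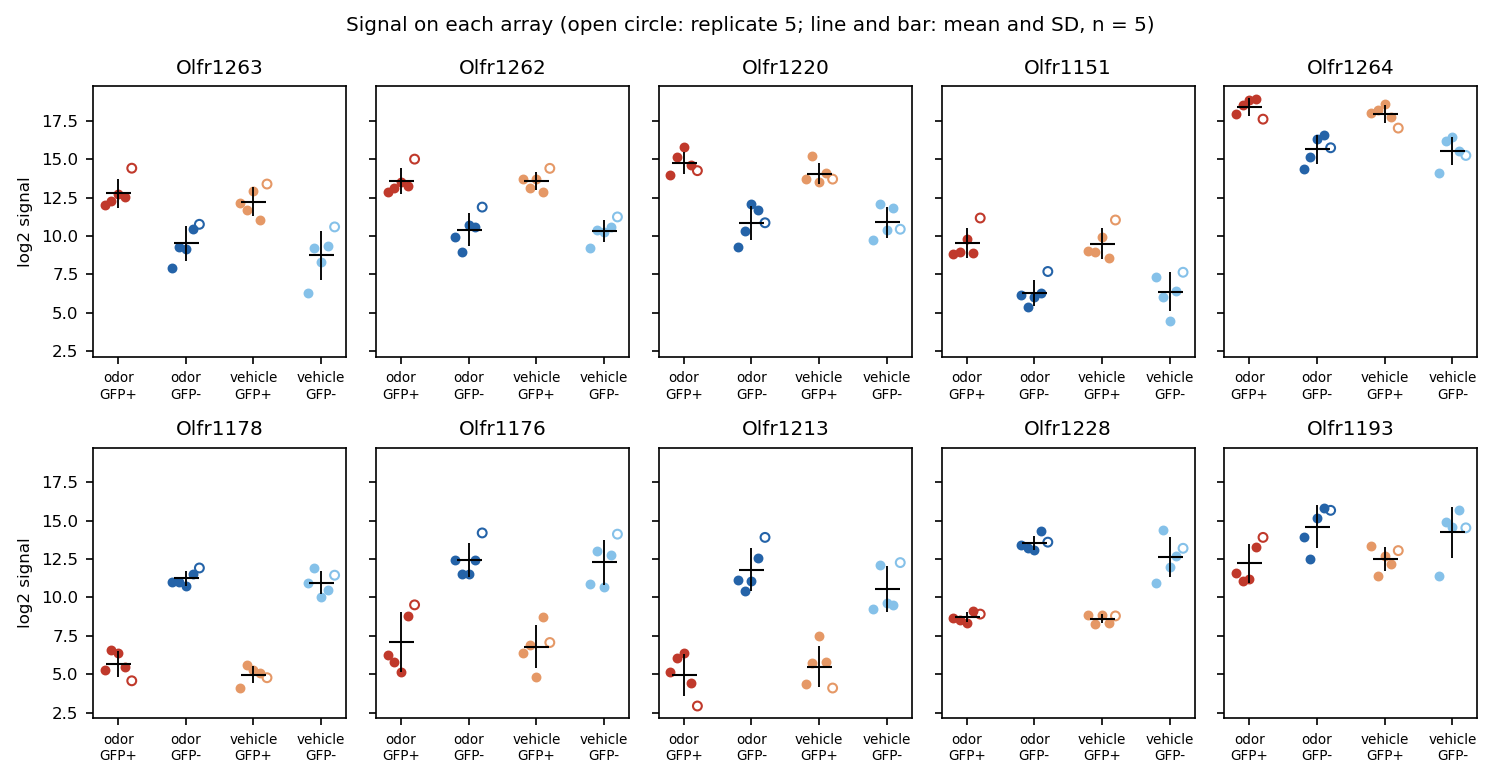
Log2 signal (y axis) on each of the 20 arrays for 10 receptors, in odor GFP+, odor GFP-, vehicle GFP+ and vehicle GFP- cells. Open circles are the arrays of replicate 5, and lines and bars are the mean and SD of 5 samples. Olfr1263, Olfr1262, Olfr1220, Olfr1151 and Olfr1264 are higher in GFP+ cells, Olfr1178, Olfr1176, Olfr1213 and Olfr1228 are lower without overlap, and the groups of Olfr1193 overlap.

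Complete separation of the 5 GFP+ from the 5 GFP- samples was seen for 11 receptors higher and 16 lower in odor pools, where 1.04% and 4.02% of all probe sets were separated in those directions. In vehicle pools 12 were higher and 12 lower without overlap, against 0.829% and 3.91% of all probe sets. Of the receptors called higher, 28 of 30 in odor pools and 29 of 30 in vehicle pools were higher in all 5 pools. Of those called lower, 23 of 23 and 18 of 19 were lower in all 5 pools. The calls were made from these same pool differences, so this agreement is a description and adds no support to them. The vehicle counts by pool rest on the labels, since the fractions of vehicle pools 1, 2 and 4 did not deviate together (correlations of -0.005, -0.324 and 0.096). The low signal was at or below background on at least 3 of 5 arrays for 5 of those lower in odor pools (Olfr1163, Olfr1213, Olfr1239, Olfr1248 and Olfr1277). In vehicle pools this held for 2 (Olfr1163 and Olfr1178). Over all 20 arrays 68 of the 97 were above background throughout, and Olfr1141, Olfr1145, Olfr1164, Olfr1188 and Olfr1230 were at or below it on 15 or more arrays. A signal at background does not show that a receptor was absent.

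Olfr1264, Olfr1222, Olfr1193 and Olfr1220 had the highest mean signals of the 97 probe sets, though signals of different probe sets are not a measure of relative abundance. Olfr1264 had 17.93, 18.54, 18.86, 18.93 and 17.60 in odor GFP+ cells against 14.34, 15.13, 16.34, 16.60 and 15.74 in odor GFP- cells. Vehicle signals were 17.99, 18.19, 18.61, 17.77 and 17.02 in GFP+ cells against 14.11, 16.20, 16.42, 15.56 and 15.24 in GFP- cells. The groups were apart in both conditions, with changes of 2.74 ± 0.32 and 2.41 ± 0.32 (limma adjusted p = 7.4e-05 and 0.000185). The highest signal of any probe set was 18.49 to 19.86 per array, so the GFP+ signals of Olfr1264 were near the top of the range.

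Olfr1222 was called in 1 condition. It had 14.91, 14.74, 17.35, 16.26 and 15.79 in odor GFP+ cells against 14.65, 14.13, 15.57, 15.11 and 15.04 in odor GFP- cells, a difference of 0.91 ± 0.34 that did not pass (limma adjusted p = 0.17). The vehicle samples had 15.72, 14.95, 17.67, 16.18 and 15.87 in GFP+ cells against 13.90, 14.67, 14.53, 14.90 and 14.82 in GFP- cells, a change of 1.51 ± 0.34 (limma adjusted p = 0.0107). Both differences were positive in 5 of 5 pools. Olfr1193 ran the other way, at 11.58, 11.09, 11.21, 13.28 and 13.91 in odor GFP+ cells against 13.95, 12.48, 15.19, 15.80 and 15.67 in odor GFP- cells, a change of -2.41 ± 0.63 (limma adjusted p = 0.0298). In vehicle pools the difference was -1.71 ± 0.63 (limma adjusted p = 0.138). Olfr1193 was lower in GFP+ cells in 5 of 5 odor pools. Without odor replicate 1, 3, 4 or 5 its change stayed between -2.57 and -2.01, but the call was lost (limma adjusted p from 0.0654 to 0.152). Without vehicle replicate 1 the vehicle difference was -2.61 (limma adjusted p = 0.000585).

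Subfamilies of related receptor sequences, taken from the MOR numbers in the RefSeq synonyms, differed in how uniformly their members behaved. The 11 subfamilies with 3 or more members held 79 of the 97 receptors. These names come from sequence alone and the files gave no protein sequences, and probes of close relatives may share signal, which was not tested. All 3 receptors of MOR234, Olfr1261, Olfr1262 and Olfr1263, were higher in both conditions, with medians of 3.14 in odor pools and 3.23 in vehicle pools. Olfr1261 changed least of them, by 1.45 ± 0.28 and 1.43 ± 0.28 (limma adjusted p = 0.00391 and 0.00373).

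MOR225 was mostly depleted, with 6 of 9 receptors lower and 1 higher in each condition and medians of -3.29 and -2.75. The exception, Olfr1180, changed by 1.87 ± 0.41 in odor pools and by 1.77 ± 0.41 in vehicle pools (limma adjusted p = 0.00947 and 0.0124), and lies next after Olfr1178, the lowest of the subfamily, among the 97. That call was lost without odor replicate 1 (1.57, limma adjusted p = 0.0568) and, in vehicle pools, without vehicle replicate 3 (1.37, limma adjusted p = 0.0689) or 5 (1.72, limma adjusted p = 0.0533). Olfr1197 and Olfr1200, also of MOR225, differed by -0.74 and 0.01 in odor pools and did not pass.

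MOR230 and MOR177 held receptors that were higher or not called. In MOR230, 3 of 6 were higher in each condition, with medians of 1.67 and 1.60. Olfr1195 and Olfr1209 were called in both, Olfr1199 in odor pools alone and Olfr1205 in vehicle pools alone. The vehicle call of Olfr1205 was lost without vehicle replicate 1 or 3 (1.85 each, limma adjusted p = 0.0575 and 0.11). In MOR177, 3 of 4 were higher in odor pools and 2 of 4 in vehicle pools. Olfr1141 was at background and called in neither condition. Olfr1152, above background, did not pass in vehicle pools (1.02 ± 0.31, limma adjusted p = 0.0609). Olfr1151 led MOR177, and Olfr1209 had 10.91, 11.11, 11.77, 10.67 and 12.41 in odor GFP+ cells against 9.45, 8.18, 8.12, 9.33 and 10.72 in odor GFP- cells, a change of 2.21 ± 0.44 (limma adjusted p = 0.00514).

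The larger subfamilies were split. MOR233, with 17 receptors, had 1 higher and 5 lower in odor pools and 3 higher and 5 lower in vehicle pools, and ranged from Olfr1213 at -5.05 to Olfr1225 at 1.88 in vehicle pools. MOR231, with 14, had 3 higher and 5 lower in odor pools and 5 higher and 3 lower in vehicle pools, and ranged there from Olfr1243 at -2.81 to Olfr1238 at 2.42. MOR174, with 12, had 5 higher and 3 lower in odor pools and 4 higher and 3 lower in vehicle pools, and ranged there from Olfr1176 at -5.51 to Olfr1157 at 2.56. MOR232 (5 receptors), MOR173, MOR227 and MOR228 (3 each) had 1 higher and none lower in each condition. Those were Olfr1204, Olfr1160, Olfr1270 and Olfr1274, and the vehicle calls of Olfr1204 and Olfr1160 were lost when any 1 vehicle replicate was left out (limma adjusted p from 0.0641 to 0.111 for Olfr1204 and from 0.0554 to 0.0866 for Olfr1160). That of Olfr1204 was also lost without odor replicate 4 or 5 (limma adjusted p = 0.0578 and 0.0573).

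**Figure D3:**
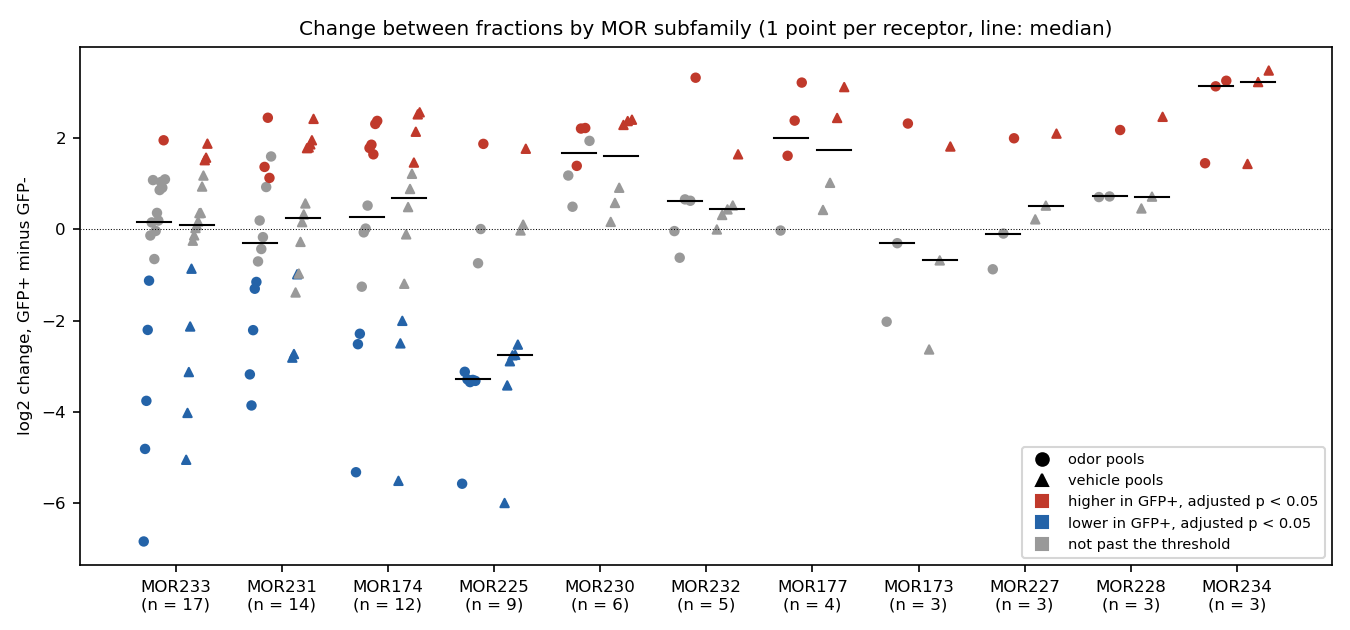
Log2 change between GFP+ and GFP- cells (y axis) for the receptors of 11 MOR subfamilies with 3 or more members (x axis). Circles are odor pools and triangles vehicle pools, colours give the call, and lines are medians. MOR225 lies mostly below 0, all 3 receptors of MOR234 lie above it, and MOR233, MOR231 and MOR174 hold receptors on both sides.

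Neighbours on the chromosome were called in the same or in opposite directions. RefSeq lists no protein-coding gene other than receptors between 95 of 96 successive members, and 119 such genes lie between Olfr1274 and Olfr1275. In the order of receptor genes alone, 82 pairs were next to each other, and Olfr1274 and Olfr1275 count as a pair. Both receptors were called in 26 pairs in odor pools, with 9 pairs both higher, 5 both lower and 12 opposite. In vehicle pools both were called in 20 pairs, with 9 both higher, 5 both lower and 6 opposite. Across the 82 pairs the changes of neighbours correlated at r = 0.16 in odor pools and 0.19 in vehicle pools, as a description over pairs that share receptors and samples.

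The widest gap between neighbours in vehicle pools, 7.33 log2 units, was between Olfr1173 and Olfr1176. Olfr1173 had 9.76, 8.74, 7.73, 7.66 and 10.27 in vehicle GFP+ cells against 6.97, 7.35, 5.53, 6.62 and 8.61 in vehicle GFP- cells, a change of 1.81 ± 0.30 (limma adjusted p = 0.00104), while Olfr1176 was lower by far. In odor pools Olfr1173 changed by 1.19 ± 0.30 (limma adjusted p = 0.0244), a call lost without odor replicate 1, 2 or 5 (limma adjusted p from 0.0915 to 0.127). Olfr1219 and Olfr1220 were 5.29 apart in vehicle pools and 6.11 apart in odor pools. Against the high Olfr1220, Olfr1219 had 11.26, 10.71, 11.54, 11.68 and 12.58 in odor GFP+ cells and 12.76, 12.33, 13.49, 15.17 and 15.04 in odor GFP- cells, a change of -2.21 ± 0.43 (limma adjusted p = 0.00432). Olfr1208 and Olfr1209, of MOR225 and MOR230, were 5.18 apart in vehicle pools and 5.50 apart in odor pools.

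A stretch of MOR231 receptors, noticed after the values were seen, alternated from gene to gene in odor pools. Along the chromosome Olfr1239 changed by -1.15, Olfr1240 by 1.37, Olfr1241 by -2.21, Olfr1242 by 2.45 and Olfr1243 by -3.18, and all 5 passed. Their vehicle differences had the same signs, and Olfr1240, Olfr1242 and Olfr1243 passed there too. Olfr1242 had 10.13, 10.87, 10.68, 10.43 and 11.20 in odor GFP+ cells against 7.86, 6.70, 7.75, 8.99 and 9.79 in odor GFP- cells. Olfr1243 had 6.19, 6.53, 7.99, 5.83 and 8.26 in odor GFP+ cells against 8.78, 8.55, 11.08, 10.69 and 11.60 in odor GFP- cells. The groups of both receptors did not overlap, in opposite directions.

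Runs of neighbours that moved together also occurred. Olfr1261, Olfr1262, Olfr1263 and Olfr1264 are successive and were all higher in both conditions, and Olfr1264 is not of the MOR234 subfamily of the other 3. Olfr1226 and Olfr1228, both of MOR233, were both lower in both conditions, whereas Olfr1225 beside them was higher in vehicle pools. Olfr1226 had 8.93, 7.57, 9.05, 8.08 and 11.46 in odor GFP+ cells against 11.89, 12.60, 12.43, 13.20 and 13.77 in odor GFP- cells, a change of -3.76 ± 0.42 (limma adjusted p = 4.88e-05). Olfr1277, the last of the 97 1 of the 3 that lie apart, was lower, by -3.13 ± 0.42 in odor pools and -2.39 ± 0.42 in vehicle pools (limma adjusted p = 0.000208 and 0.00165).

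The sort separated the receptors alike in the odor and the vehicle pools, which are different mice. Both conditions had 25 receptors called higher and 19 called lower in common, 39 were called in neither, and 0 were called in opposite directions. The changes of the 97 in both conditions correlated at r = 0.969 and rho = 0.948, as a description across receptors measured on the same arrays. The 5 higher in odor pools alone were Olfr1152, Olfr1166, Olfr1189, Olfr1199 and Olfr1245, and the 4 lower there alone were Olfr1193, Olfr1239, Olfr1241 and Olfr1248. In vehicle pools alone Olfr1205, Olfr1222, Olfr1225, Olfr1238 and Olfr1254 were higher. None of these 14 passed the test of the difference between conditions given below. The mean change had opposite signs in 10 receptors, with none over 0.876 in size in either condition. The 4 receptors nearest to 0 in vehicle pools were Olfr1260, Olfr1197, Olfr1215 and Olfr1216, and Olfr1260 was also at -0.04 ± 0.30 in odor pools.

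**Figure D4:**
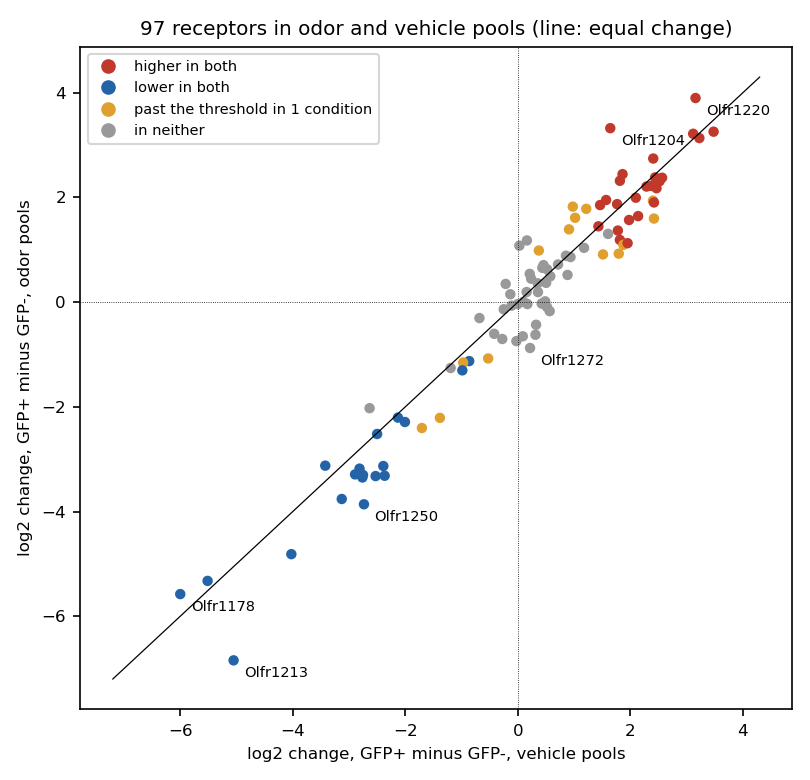
Log2 change between GFP+ and GFP- cells in odor pools (y axis) against that in vehicle pools (x axis) for the 97 receptors, with the line of equal change. Colours give the calls. The points follow the line, and Olfr1213, Olfr1204, Olfr1250 and Olfr1272 are among those farthest from it. The size of the odor value of Olfr1213 is uncertain, since its GFP+ signal was at or below background on 3 of 5 arrays.

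The study was designed to find receptors whose enrichment in GFP+ cells changes with the odor. No receptor of the 97 passed this test, odor minus vehicle in the change between fractions, and 0% of all 22206 probe sets passed it in limma with Benjamini-Hochberg adjustment. At an unadjusted p below 0.05 there were 3 receptors, or 3.09% of the 97, against 1.21% of all probe sets and 4.17% of the other odorant receptors. That count moved with the fit: it was 0 without odor replicate 2 (0.878% of all probe sets), 9 without vehicle replicate 2 (2.13%) and 7 with the replicate number as a block (0.838%). Of the 97 differences 35 were positive (36.1%), against 51.2% of all probe sets and 38.0% of the other odorant receptors, which include the 7 left out. The 95% confidence interval of a single receptor reached 1.14 log2 units to either side in the median, with no correction for the number tested. Differences beyond that size, 1.68 for Olfr1204 and -1.79 for Olfr1213, did not pass, so odor effects above 1.14 are not excluded.

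Olfr1204, of MOR232, had the smallest p of the 97. Its signals were 8.44, 10.19, 6.99, 11.23 and 11.72 in odor GFP+ cells against 6.36, 4.73, 5.18, 7.49 and 8.19 in odor GFP- cells. In vehicle pools they were 10.26, 9.92, 10.19, 6.83 and 10.11 in GFP+ cells against 7.12, 8.01, 9.12, 5.65 and 9.19 in GFP- cells. The change between fractions was 2.08, 5.46, 1.82, 3.74 and 3.53 in the odor pools and 3.14, 1.91, 1.06, 1.18 and 0.93 in the vehicle pools. These ranges overlapped, and the difference was 1.68 with a 95% interval of 0.28 to 3.08 (limma, unadjusted p = 0.0226, adjusted p = 1.0). It differed by 0.25 between odor and vehicle in GFP+ cells and by -1.43 in GFP- cells (limma, unadjusted p = 0.792 and 0.1).

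Olfr1250 and Olfr1272 differed in the other direction. Olfr1250 had 8.04, 5.69, 7.34, 7.96 and 8.0 in odor GFP+ cells against 11.22, 10.79, 10.83, 11.10 and 12.41 in odor GFP- cells. In vehicle pools it had 8.76, 8.19, 9.47, 8.01 and 8.23 in GFP+ cells against 10.95, 11.11, 10.96, 11.31 and 12.00 in GFP- cells. It was lower in GFP+ cells in every pool, and the odor difference was -1.13 with an interval of -2.20 to -0.06 (limma, unadjusted p = 0.0403, adjusted p = 1.0). Olfr1272, near background, changed by -0.12, -1.15, 0.25, -1.63 and -1.73 in the odor pools and by 1.18, -0.04, 0.01, 0.64 and -0.70 in the vehicle pools, a difference of -1.09 with an interval of -2.10 to -0.09 (limma, unadjusted p = 0.0347, adjusted p = 1.0). Next came Olfr1234, at -0.82 with an interval of -1.74 to 0.09. All of these intervals are for single receptors and are not corrected for the number tested.

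**Figure D5:**
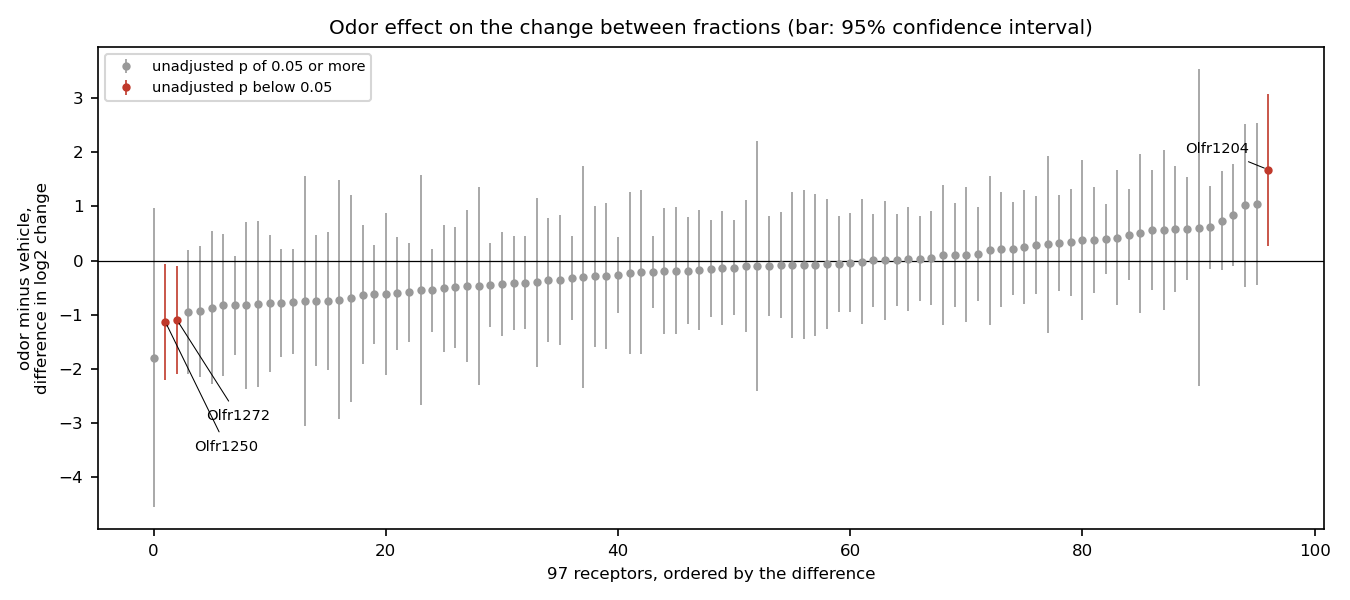
Odor minus vehicle in the log2 change between GFP+ and GFP- cells (y axis) for the 97 receptors ordered by this difference (x axis, rank), with 95% confidence intervals. Olfr1204, Olfr1250 and Olfr1272 are the 3 whose interval leaves out 0, and none passed after adjustment.

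Odor and vehicle were also compared within each fraction. In GFP+ cells none of the 97 passed in limma, and 0% of all probe sets did. This fit had no term for the replicate number. At an unadjusted p below 0.05 there was 1 receptor, or 1.03% of the 97, against 0.275% of all probe sets and 1.42% of the other odorant receptors. It was Olfr1250, at -1.13 with a 95% interval of -2.15 to -0.10 (limma, unadjusted p = 0.0339, adjusted p = 1.0). The labels do not pair odor with vehicle samples, which are different mice, but GFP+ samples of 1 number deviated together (correlations from 0.157 to 0.862). With the number as a block, 16 of the 97 were below 0.05 before adjustment, 12 higher and 4 lower, where 3.69% of all probe sets were. Array weights gave 14 (3.17% of all probe sets). Without the block, Olfr1229 and Olfr1215 followed with 0.64 and 0.67 (limma, unadjusted p = 0.0698 and 0.0816). In GFP- cells none of the 97 passed in limma, where 0% of all probe sets did. An unadjusted p below 0.05 was found for 0 of the 97, against 0.135% of all probe sets and 0.305% of the other odorant receptors. With the block 3 were below it (0.856% of all probe sets), and with array weights 4 (7.49%). The smallest there were Olfr1225 at 0.95, Olfr1204 at -1.43 and Olfr1213 at 1.26 (limma, unadjusted p = 0.0968, 0.1 and 0.137). For Olfr1250 the GFP+ signals averaged 7.41 ± 1.00 with odor and 8.53 ± 0.60 with vehicle, and the GFP- signals 11.27 ± 0.66 with odor and 11.27 ± 0.43 with vehicle (SD, n = 5 each). With the shared replicate number as a block, 0 of the 97 passed in each of the 3 odor comparisons.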

How the data were processed

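Receptor messages were measured in 20 samples from 10 pools of 3 mice. Clariom S arrays were hybridised with biotin-labelled cRNA from 50 to 100 ng of RNA, per the labels' protocols. Affymetrix Expression Console was used for the arrays, per the submitters' processing notes, with version, background correction and normalization not given in the sources used here. Deposited by the authors, values lie on a log2 scale, judging by their range, and entered the fits unchanged. The table held 28846 rows, of which 6640 control rows were left out and 22206 probe sets were tested without a filter. It holds no detection calls, so background was taken as each array's median over 23 background control probe sets (5.14 to 6.34). All 97 receptors matched RefSeq by Entrez gene ID.

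The members and gene lists were chosen with earlier results of these data known. By the mouse and pool numbers in the labels, fractions of the same condition and number were taken to come from the same mice. Differences within pools were therefore fitted with limma 3.58.1 in R 4.3.3 (lmFit, eBayes, Benjamini-Hochberg at 0.05), 1 mean per condition. Deviations from the group mean in the 2 fractions of a pool correlated at 0.221 to 0.805 in odor pools. In vehicle pools 1 to 5 they correlated at -0.005, -0.324, 0.172, 0.096 and 0.801. Numbers 1, 2 and 4 were below 0.1 there, so the vehicle pairing rests on the labels. The direct comparison of odor and vehicle used the 10 samples of a fraction. Pools are separate animals, and p-values measure the spread between pools. The code was tested on simulated data. In GFP+ cells odor and vehicle samples of 1 number deviated together (correlations from 0.157 to 0.862, all above 0.1). The main fit there did not use the number, and a block for it was tried as an alternative. In GFP- cells number 2 was at -0.378, and for differences within pools the correlations ranged from -0.481 to 0.208. Arrays have no counts, and their number limits the precision.

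Named receptors were the 8 highest and 8 lowest in vehicle pools, the 4 nearest 0, the 4 with the highest signal, those with the smallest p for odor (4 for enrichment, 3 within each fraction), those of differing sign, the highest and lowest of each subfamily, the first and last, and the 3 widest opposite neighbours. Pairs by protein identity were not formed, as no protein table was used here. Other settings tried were array weights, a trend of variance with intensity, median centring or quantile normalization of the arrays, removal of the dimmest 25% of probe sets, a term for replicate 5 or its removal, removal of each replicate, and fits with and without a block.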

Additional observations from a re-analysis of the deposited data

Results flagged for a closer look

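In 7 of 110 groups of 5 values tested (6.36%), 1 value lay far from the other 4, where chance gives about 1 in 20. The 7 flagged were all groups of pool differences. Among odor pools, Olfr1215 was at -1.58 in pool 5 and at 1.44 to 2.24 in the others, and without odor replicate 5 its change was 1.74 (limma adjusted p = 0.0147), against 0.299 with all pools. Olfr1216 was at 0.56 in odor pool 2 and at -1.09 to -0.87 in the others. Olfr1225 was at 2.37 in odor pool 1 and at 0.49 to 0.96 in the others. Olfr1228 was at -5.17 in odor pool 4 and at -4.79 to -4.66 in the others, a small gap in an even group. Among vehicle pools, Olfr1229 was at -1.35 in pool 4 and at 0.05 to 0.45 in the others. Olfr1264 was at 3.88 in vehicle pool 1 and at 1.77 to 2.21 in the others, and Olfr1271 was at 3.57 in vehicle pool 1 and at -0.69 to 0.19 in the others. The GFP- array of vehicle pool 1 correlated least with its group over all probe sets (mean r of 0.895). Deviations of the 2 fractions from their group means correlated at -0.005 in vehicle pool 1 and 0.096 in vehicle pool 4, so these vehicle differences rest on the pairing in the labels.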

How the results depend on the processing

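Counts of receptors called depended most on the unit of the test. With no replicate block, that is with fraction means in place of differences within pools, 15 receptors were higher in odor pools and 17 in vehicle pools, against 30 and 30, and 16 and 15 were lower, against 23 and 19. Leaving out each replicate gave 26 to 33 higher and 20 to 24 lower in odor pools, and 25 to 32 higher and 16 to 22 lower in vehicle pools. Without both pools numbered 5, 24 were higher and 21 lower in odor pools, and 27 were higher and 16 lower in vehicle pools. Array weights gave 40 higher in odor pools, where all probe sets had 1392 higher, against 460. Centring each array on its median moved the median change of all probe sets to 0.29 in odor pools and 0.33 in vehicle pools, and gave 35 higher and 21 lower, and 36 higher and 17 lower, where all probe sets had 807 higher and 1055 lower, against 460 and 1292, and 1169 higher and 1211 lower, against 501 and 1523. The replicate block, like every other setting tried, gave 0 of the 97 in the 3 odor comparisons. In the comparisons of fractions the block was fitted over all probe sets, and their calls fell to 359 higher and 1138 lower in odor pools and 397 higher and 1314 lower in vehicle pools. For single receptors named, 1807 of the values under other settings kept direction and side of the threshold, 63 lost the call and 19 gained it, and the cause was not tested.

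A further 53 changed sign, all of receptors whose change was near 0 and not called. Centring on the median gave 0.17 for Olfr1260, 0.18 for Olfr1141, 0.17 for Olfr1214, 0.04 for Olfr1247 and 0.12 for Olfr1271 in odor pools, and 0.24 for Olfr1260, 0.22 for Olfr1197, 0.11 for Olfr1229 and 0.03 for Olfr1148 in vehicle pools. Array weights gave 0.0 for Olfr1260 and 0.01 for Olfr1214 in odor pools, and -0.19 for Olfr1215, -0.29 for Olfr1216, -0.12 for Olfr1272, 0.36 for Olfr1148, -0.06 for Olfr1256, -0.23 for Olfr1258 and -0.47 for Olfr1206 in vehicle pools. Quantile normalization gave 0.12 for Olfr1214 in odor pools and -0.04 for Olfr1215 in vehicle pools. Without both pools numbered 5 the values were 0.1 for Olfr1260 and 0.05 for Olfr1271 in odor pools, and 0.01 for Olfr1260 and 0.02 for Olfr1197 in vehicle pools. Leaving out each replicate gave, in odor pools, -0.25 to 0.1 for Olfr1260, -0.06 to 0.31 for Olfr1229, -0.08 to 0.08 for Olfr1141, -0.18 to 0.11 for Olfr1214, -0.41 to 0.12 for Olfr1247 and -0.37 to 0.05 for Olfr1271. In vehicle pools it gave -0.29 to 0.21 for Olfr1260, -1.04 to 0.75 for Olfr1197, -0.22 to 0.34 for Olfr1215, -0.86 to 1.11 for Olfr1216, -0.02 to 0.45 for Olfr1272 and -0.28 to 0.17 for Olfr1229. It also gave -0.53 to 0.08 for Olfr1148, -0.16 to 0.63 for Olfr1258, -0.24 to 0.82 for Olfr1271 and -0.45 to 0.51 for Olfr1206. Differences at background were not detectable here, and 5 pools per condition limit the odor comparison.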
